A study of Mus musculus with 6 samples.

Results

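G protein-coupled receptors cross the plasma membrane repeatedly and pass signals from lipids, metabolites, peptides or protons to heterotrimeric G proteins inside the cell. Those that were cloned before a ligand was known were numbered as Gpr genes, and many are still orphans. The set described here holds the 91 genes whose symbol is Gpr followed by a number and at most 1 lower-case letter, out of 23283 symbols in the deposited tables. Gpr44, a prostaglandin D2 receptor gene, was left out by that rule. The members were set by a rule on names and not by any measured value, though the rule was chosen with earlier results of these data known. The label "orphan" holds for only some of them, because several now have accepted or proposed ligands, others are adhesion-class receptors, and a few encode Golgi or lysosomal membrane proteins that are not known to signal as receptors. In RefSeq, 18 of the 91 now carry another symbol, among them the adhesion receptors Gpr97 (Adgrg3) and Gpr126 (Adgrg6).

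The GM-CSF libraries were 3 cultures of small intestinal lamina propria eosinophils from wild-type BALB/c mice that received GM-CSF at 10 ng/ml for 4 hours. The untreated libraries were 3 cultures of the same kind kept without GM-CSF. GM-CSF is a cytokine that prolongs the life of eosinophils and activates them. Nothing in the labels says that the cultures were from different animals, and how the eosinophils were isolated is unknown here. The p-values below therefore speak of the variation among these cultures, which may be technical. Eosinophil marker genes were present in all libraries, with Siglec5 (the files' symbol for Siglecf) averaging 170 FPKM with GM-CSF and 170 FPKM without it, and Ccr3 averaging 251 FPKM with GM-CSF and 289 FPKM without it. Neither passed the test described below, while Epx, Il5ra and Alox15 of the same 6-gene list fell. FPKM is a fragment count scaled by transcript length and by library size, so levels of different genes can be compared with each other.

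Eosinophils are known to express receptors that read lipid, proton and metabolite signals in inflamed or barrier tissue. In mice, the proton-sensing receptor encoded by Gpr65 is known to support eosinophil survival in acid surroundings, and Gpr183, a receptor for oxysterols, is known for positioning immune cells in lymphoid and intestinal tissue. Adhesion-class receptors have long extracellular parts that bind matrix or neighbouring cells.

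Of the 91 members, 22 averaged at least 1 FPKM over the 6 libraries, 16 averaged from 0.1 to below 1 FPKM, 29 lay above 0 but below 0.1 FPKM, and 24 were listed at 0 in every library. Among the members named here, Gpr180, with a mean of 1.87 FPKM, lay nearest above 1 FPKM and Gpr182, with a mean of 0.789 FPKM, nearest below it. By library, between 22 and 24 members reached 1 FPKM with GM-CSF, and 21 or 22 without it. The summed FPKM of all members was between 599.6 and 616.1 with GM-CSF and between 618.1 and 624.3 in untreated libraries. As a share of all FPKM in a library the members overlapped, at 0.129% to 0.134% with GM-CSF and 0.124% to 0.133% without it. The 5 highest members held between 56.3% and 57.3% of that sum with GM-CSF and between 61.6% and 63.2% without it. Of 9 intracellular or atypical proteins with Gpr names, 6 averaged at least 1 FPKM as did 4 of 8 lipid-related receptors.

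**Figure D1:**
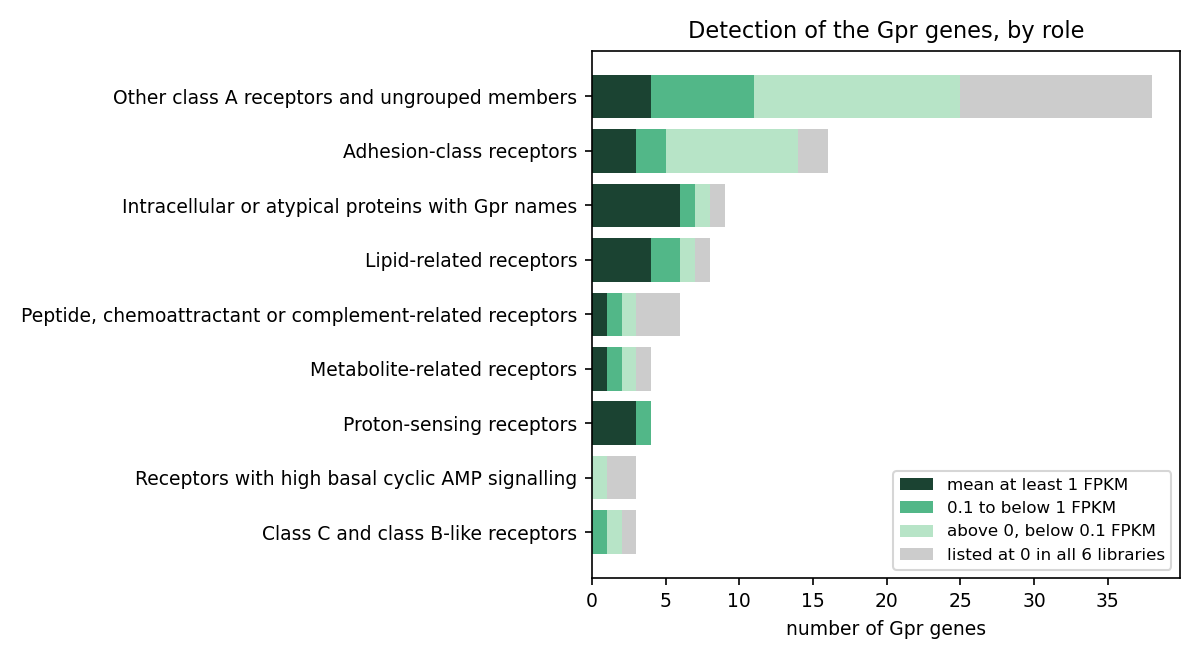
Number of Gpr genes (horizontal axis) in each role group (vertical axis), divided by mean FPKM over the 6 libraries. The largest group, other class A receptors, held 38 genes, of which 4 averaged at least 1 FPKM and 13 were listed at 0 in all libraries.

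Across all tested genes the proportion that changed gives the background against which the members' counts are read. Every gene averaging at least 1 FPKM was tested on log2(FPKM + 1) with limma, a linear model whose variances are moderated across genes, and p-values were adjusted by Benjamini-Hochberg over all 10106 tested genes. A gene passed where its adjusted p was under 0.05. Of the 22 members tested, 11 passed, 4 of them higher and 7 lower with GM-CSF, while 21.9% of all tested genes passed, 7.68% higher and 14.2% lower. Over all genes these were 776 rises and 1436 falls, while median-of-ratios scaling gave 1008 rises and 1040 falls and left 4 members higher and 5 lower. Leaving out any 1 library kept 4 members higher but left 3 lower without GM-CSF replicate 1 or 2 and 4 lower without any other library, and it left as few as 888 falls over all genes, without untreated replicate 2. The median log2 fold change was -0.07 over the 22 members and -0.05 over all tested genes, and the median absolute change was 0.27 over the members and 0.14 over all tested genes. Of the members, 3 changed by at least 1 on the log2 scale (Gpr171, Gpr126 and Gpr65), as did 1.77% of all tested genes. These figures describe only the members that passed the filter on low values. Gpr126 passed that filter through its GM-CSF libraries alone, since it averaged 0.976 FPKM in untreated cultures.

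**Figure D2:**
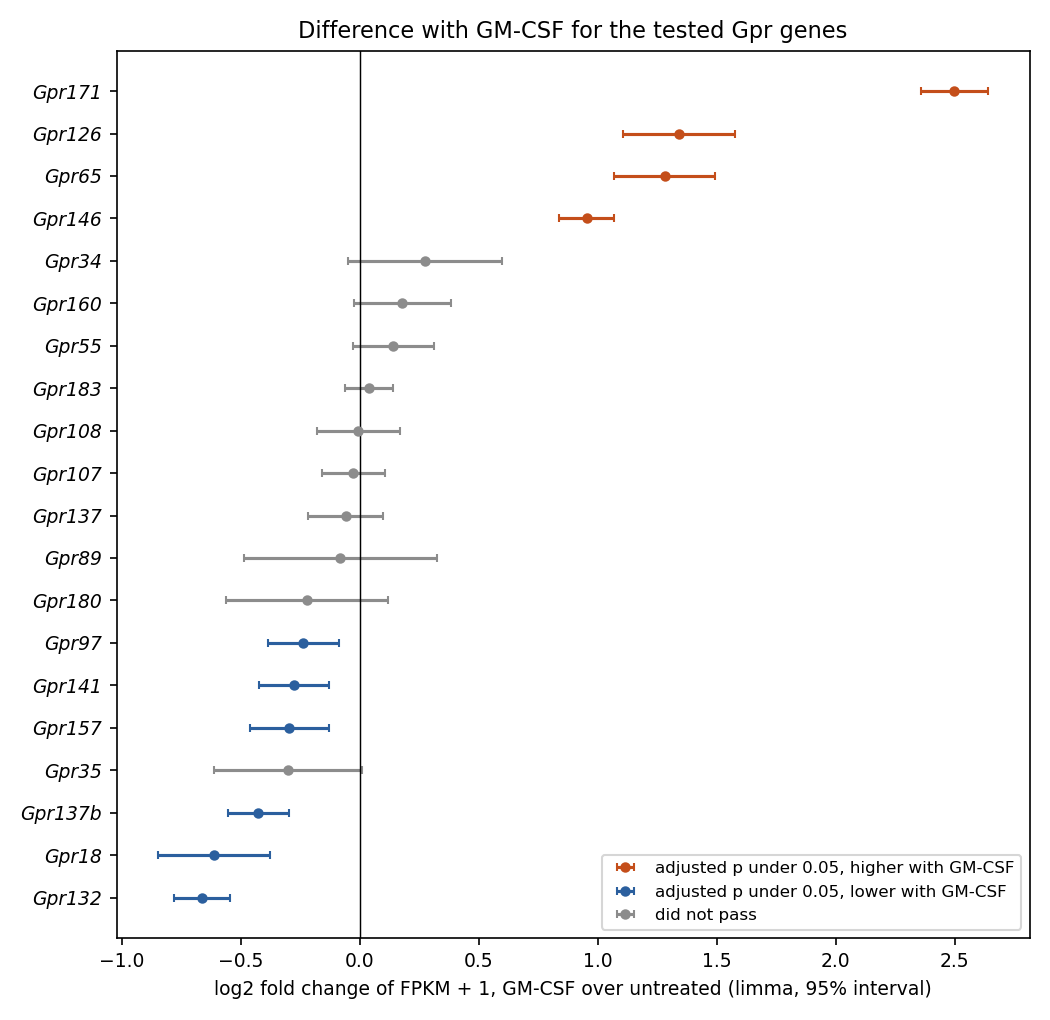
Log2 fold change of FPKM + 1, GM-CSF over untreated, for 20 of the tested Gpr genes (horizontal axis), with 95% limma intervals. The 4 genes that rose lie between 0.95 and 2.50, and the 6 shown that fell lie between -0.66 and -0.24.

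Upstream sequence is shown for members that rose and for a member with a shared motif, because GM-CSF receptors are known to activate STAT5, whose core site reads TTCNNNGAA. This motif is its own reverse complement, so a match stands on both strands. The 250 bases before annotated transcript starts were taken from a table of RefSeq promoters (GRCm38.p6), in which 18 of the 22 tested members were matched. Gpr171 was not among them. The starts are those of single transcripts, so a window can lie inside the full span of its gene, as those of Gpr126 and Gpr55 and the one shown for Gpr146 do. The motif was found before 2 of the 18 members, Gpr146 and Gpr55, and before 8.13% of all 27025 genes in the table. Gpr146 has 3 annotated starts, and the match is before the second. Of all 32851 windows, 7.02% hold the motif. The cyclic AMP response element TGACGTCA, also its own reverse complement, was before 0 of the 18 members, before 1.77% of all genes and in 1.55% of all windows. Capitals mark the TTCNNNGAA match.
Gpr146, chr5:139380389-139380638, plus strand: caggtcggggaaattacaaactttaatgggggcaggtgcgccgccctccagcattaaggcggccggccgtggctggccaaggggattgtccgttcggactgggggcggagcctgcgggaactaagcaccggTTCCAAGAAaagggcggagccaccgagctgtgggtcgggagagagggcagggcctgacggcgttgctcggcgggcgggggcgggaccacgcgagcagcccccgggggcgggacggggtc
Gpr65, chr12:98268385-98268634, plus strand: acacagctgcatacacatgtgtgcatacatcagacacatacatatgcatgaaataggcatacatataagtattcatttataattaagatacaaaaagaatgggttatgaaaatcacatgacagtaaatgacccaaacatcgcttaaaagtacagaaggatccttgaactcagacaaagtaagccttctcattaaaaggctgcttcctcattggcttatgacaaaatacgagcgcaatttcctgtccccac
Gpr126, chr10:14545037-14545286, minus strand: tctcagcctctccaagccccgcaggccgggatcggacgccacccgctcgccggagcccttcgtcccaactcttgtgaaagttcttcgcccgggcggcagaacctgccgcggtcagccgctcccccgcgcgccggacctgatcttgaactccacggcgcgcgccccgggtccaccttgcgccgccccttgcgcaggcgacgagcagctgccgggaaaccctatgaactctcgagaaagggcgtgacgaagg
Gpr55, chr1:85961056-85961305, minus strand: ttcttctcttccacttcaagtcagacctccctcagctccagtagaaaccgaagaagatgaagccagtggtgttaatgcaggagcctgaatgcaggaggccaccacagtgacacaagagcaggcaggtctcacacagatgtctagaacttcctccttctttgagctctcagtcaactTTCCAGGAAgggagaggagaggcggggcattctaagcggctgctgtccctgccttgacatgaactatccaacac

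The windows before Gpr65 and Gpr126, which rose, hold no match, and that before Gpr55, which did not pass, holds one. G and C made up 36.8% of the Gpr65 window, 70.0% of the Gpr146 window and 69.6% of the Gpr126 window. A match is a run of letters and does not show binding.

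Gpr171 showed the largest difference. It encodes a receptor reported to bind a neuropeptide cut from the proSAAS precursor, and it is also expressed by T cells. Its FPKM was 37.8, 37.7 and 36.4 in GM-CSF replicates 1 to 3 and 5.40, 6.23 and 5.73 in untreated replicates 1 to 3. The groups were far apart, and every GM-CSF library stood above every untreated one. The group means gave a ratio of 6.45 (37.3 ± 0.756 FPKM with GM-CSF and 5.79 ± 0.418 FPKM without, SD, n = 3 each), and the log2 fold change was 2.50 (SE 0.06, limma adjusted p = 4.46e-06). It lies on chromosome 3 (59096448 to 59101821, GRCm38, minus strand), inside Med12l on the opposite strand and without exon overlap. Med12l also rose, with 1.72 ± 0.0542 FPKM in GM-CSF and 0.892 ± 0.0812 FPKM in untreated cultures (SD, n = 3 each). The log2 fold change of Med12l was 0.53 (limma adjusted p = 0.00708). Like Gpr126, Med12l reached the 1 FPKM filter only because of its GM-CSF libraries.

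Gpr126 encodes an adhesion-class receptor known for its part in the myelination of peripheral nerves. It stood at 3.82, 4.02 and 4.12 FPKM with GM-CSF and at 0.888, 0.838 and 1.20 FPKM without it. The groups did not overlap. The ratio of means was 4.09, and the log2 fold change, which is understated for so low a gene by the added 1, was 1.34 (SE 0.10, adjusted p = 0.000226 by limma). The gene lies on chromosome 10 (14402583 to 14545723, minus strand) and shares exon sequence with an antisense RNA gene, Gm46212, not analysed here. The labels' protocols name a stranded mRNA kit, but the sources used here do not say whether strand was used in counting. Whether reads of the overlapping part were told apart is therefore unknown here. The same holds for Gpr65 with Gm47566, Gpr107 with Gm13405, Gpr137 with Bad, Gpr55 with 4933407L21Rik, and Gpr89 with Gja5 and Pdzk1.

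Gpr146, which has been linked in mice to cholesterol levels through the liver, was higher in all GM-CSF libraries. Its FPKM was 25.2, 26.5 and 26.8 with GM-CSF against 13.1, 13.3 and 12.6 without it. The spread within each group was small beside the distance between them. The means were 26.2 ± 0.846 FPKM with GM-CSF and 13.0 ± 0.357 FPKM without it (SD, n = 3 each), a ratio of 2.01 (log2 fold change 0.95, SE 0.05, limma adjusted p = 5.23e-05). Its 2 transcripts, of 4145 and 4065 nt, divided the sum unevenly from library to library. The longer one was given 19.7, 18.5 and 7.32 FPKM in GM-CSF replicates 1 to 3, so only the gene sum is read. With the higher transcript standing for the gene, the call ended (log2 fold change 1.03, adjusted p = 0.134 by limma). The gene (chromosome 5, 139377697 to 139396415, plus strand) lies within 3110082I17Rik on the other strand, without exon overlap, and that gene rose as well (18.6 ± 0.906 FPKM with GM-CSF and 11.9 ± 1.09 FPKM without, SD, n = 3 each; limma adjusted p = 0.00225).

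Of the proton-sensing receptors, Gpr65 rose and Gpr132 fell. Gpr65, which raises cyclic AMP when the surroundings turn acid, measured 10.1, 11.8 and 12.3 FPKM with GM-CSF and 4.32, 3.76 and 4.16 FPKM in untreated cultures. All GM-CSF values lay above all untreated values. Its means were 11.4 ± 1.15 FPKM with GM-CSF and 4.08 ± 0.286 FPKM without it (SD, n = 3 each; ratio 2.78, log2 fold change 1.28, SE 0.09, adjusted p = 0.000182 by limma). The gene is on chromosome 12 (98268635 to 98276722, plus strand).

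Gpr132 responds to oxidised fatty acids and weakly to protons. It was at 22.6, 23.0 and 24.2 FPKM with GM-CSF and at 37.9, 35.9 and 38.5 FPKM without it. Here every GM-CSF library stood below every untreated one. The means were 23.3 ± 0.820 FPKM with GM-CSF and 37.4 ± 1.40 FPKM without it (SD, n = 3 each), a ratio of 0.621 (log2 fold change -0.66, SE 0.05, adjusted p = 0.000232 by limma). No tested member fell by more. The gene lies on chromosome 12 (112850873 to 112868416, minus strand).

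Gpr4, known mainly from endothelial cells, was too low for the test at 0.543, 0.760 and 0.524 FPKM with GM-CSF and 0.314, 0.193 and 0.0732 FPKM without it. When genes averaging 0.1 FPKM or more were tested, Gpr4 passed (log2 fold change 0.43, limma adjusted p = 0.0300). It also passed with no filter on low values (limma adjusted p = 0.0401). Both calls rest on little, since its lowest value came from 0.194 kb of aligned sequence. The ratio of Gpr65 to Gpr132 within each library was 0.446, 0.511 and 0.507 with GM-CSF and 0.114, 0.105 and 0.108 without it (p = 0.1 by an exact two-sided permutation test, which cannot go lower with 3 libraries a group). Because Gpr65 rose and Gpr132 fell, each without overlap, the groups of this ratio had to separate. The permutation p had to land on its lowest value and adds no evidence. This ratio was 1 of 2 computed, both outside the planned tests. Gpr132 stayed the higher of the pair in all 6 libraries.

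Among lipid-related receptors Gpr18 fell and the others did not pass. Gpr18, for which lipid ligands have been proposed and which is known from lymphocytes, measured 36.7, 35.0 and 45.8 FPKM with GM-CSF against 58.9, 59.9 and 61.2 FPKM without it. GM-CSF replicate 3 was higher than the other two but remained below all untreated libraries. The means were 39.1 ± 5.81 FPKM with GM-CSF and 60.0 ± 1.16 FPKM without it (SD, n = 3 each), a ratio of 0.652 (log2 fold change -0.61, SE 0.10, limma adjusted p = 0.00601). Gpr18 (chromosome 14, 121911434 to 121915888) lies 36.4 kb from Gpr183 (121952331 to 121965193), and each sits inside Ubac2 on the opposite strand without exon overlap.

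Gpr183 was the most abundant member in every library, at 141, 137 and 135 FPKM with GM-CSF and 138, 136 and 129 FPKM without it. The groups overlapped, and the 95% interval of the log2 fold change ran from -0.06 to 0.14 (0.04, limma adjusted p = 0.574). Gpr18 divided by Gpr183 gave 0.259, 0.256 and 0.338 with GM-CSF. Without it the ratio was 0.427, 0.441 and 0.476 (p = 0.1 by the same exact permutation test). Gpr18 alone already separated the groups, so this ratio adds no evidence of a change. Ubac2 had 16.7 ± 1.19 FPKM with GM-CSF and 18.2 ± 2.20 FPKM without (SD, n = 3 each) and did not pass (limma adjusted p = 0.454).

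Gpr55, a receptor for lysophosphatidylinositol, had 37.5, 34.7 and 40.4 FPKM with GM-CSF and 35.6, 31.8 and 34.4 FPKM without it, with overlap (log2 fold change 0.14, 95% interval -0.03 to 0.31, limma adjusted p = 0.215). Gpr34, a receptor for lysophosphatidylserine that is well known from microglia and other macrophages, had 24.2, 28.5 and 34.7 FPKM with GM-CSF and 21.4, 23.6 and 26.2 FPKM without it. GM-CSF replicate 3 was the highest library, and the groups overlapped (log2 fold change 0.27, 95% interval -0.05 to 0.60, limma adjusted p = 0.209). Gpr174, another lysophosphatidylserine receptor gene, stayed between 0.396 and 0.459 FPKM with GM-CSF and between 0.405 and 0.615 FPKM without it. Gpr31b ranged from 0 to 0.427 FPKM with GM-CSF and from 0.152 to 0.518 FPKM in untreated libraries. Gpr17 was below 0.1 FPKM and Gpr119 was listed at 0.

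**Figure D3:**
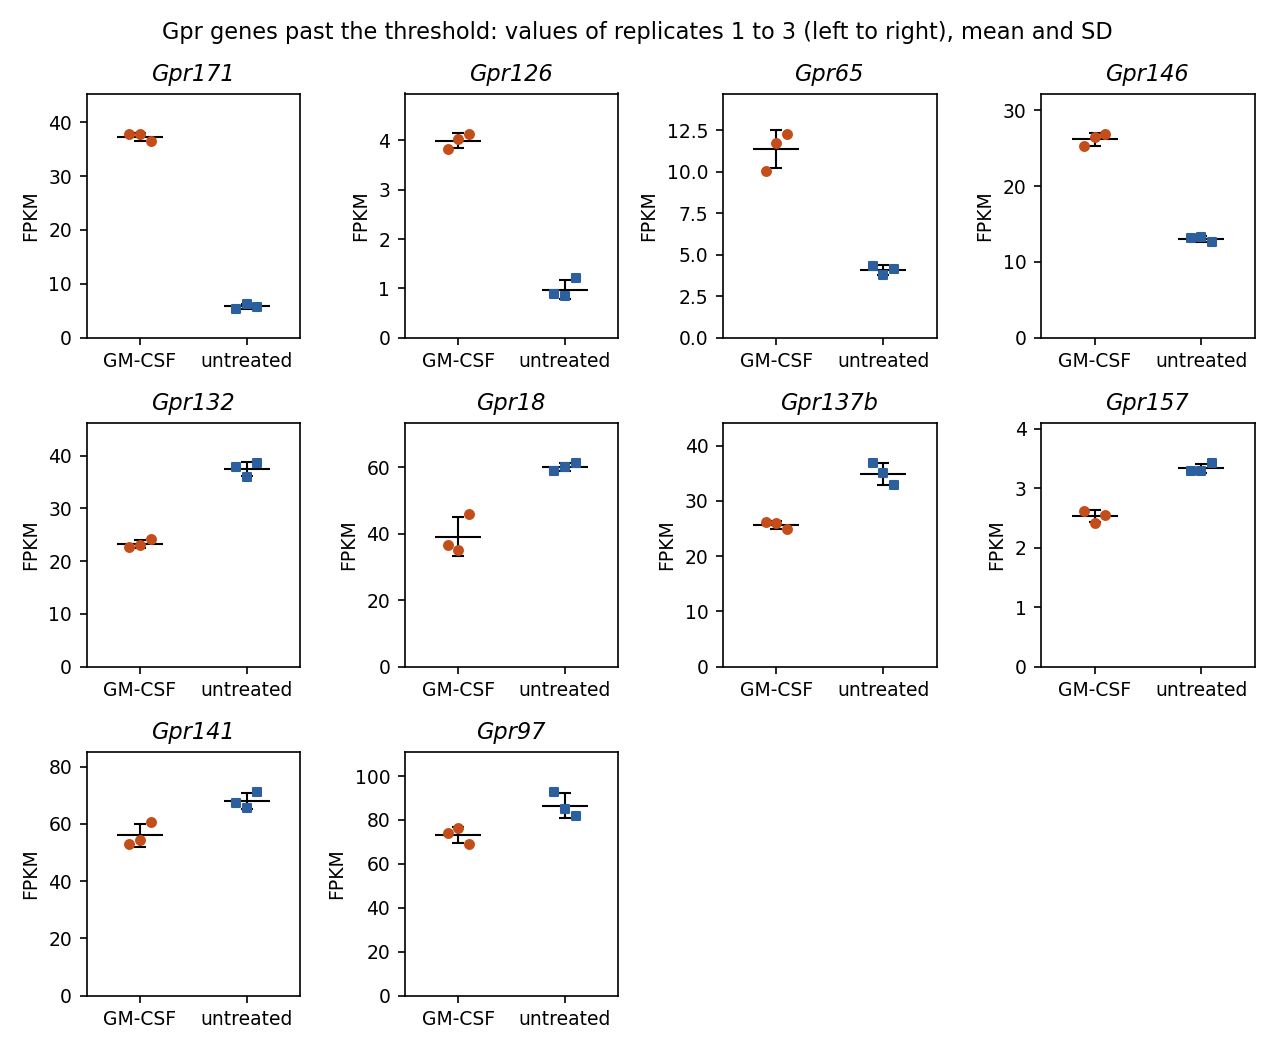
FPKM (vertical axes, starting at 0) of 10 Gpr genes that passed the threshold, in GM-CSF and untreated libraries. Points are replicates, and bars give the mean and SD (n = 3 each). In each panel the groups do not overlap, with Gpr171 at 36.4 to 37.8 FPKM in GM-CSF and 5.40 to 6.23 FPKM in untreated libraries.

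Of the adhesion-class genes, Gpr126 rose, as given above, and Gpr97 fell. Gpr97, which is known from granulocytes, was the second most abundant member on average, with 74.0, 76.3 and 69.0 FPKM after GM-CSF and 92.6, 85.1 and 81.6 FPKM without it. The groups were separated by a margin smaller than the spread within either. The log2 fold change was -0.24 (SE 0.06, limma adjusted p = 0.0371). This call ended under 9 of 17 alternatives, among them leaving out any library except untreated replicate 3 (adjusted p between 0.0538 and 0.0956) and median-of-ratios scaling (log2 fold change -0.18, adjusted p = 0.129).

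Gpr97 lies on the plus strand of chromosome 8 (95017113 to 95045250). Gpr56, an adhesion receptor of neural progenitors and cytotoxic lymphocytes, was between 0.0811 and 0.145 FPKM with GM-CSF and between 0.0992 and 0.223 FPKM without it. It lies 2.90 kb from Gpr97. Gpr98 was at 0.266 to 0.289 FPKM with GM-CSF and 0.421 to 0.514 FPKM in untreated cultures. Those ranges do not overlap, and with genes down to 0.1 FPKM tested it did not pass (limma adjusted p = 0.0555), while with no filter on low values it did (0.0252). Gpr64, Gpr110, Gpr116, Gpr123, Gpr124, Gpr125, Gpr128 and Gpr133 averaged below 0.1 FPKM, and Gpr111 and Gpr115 were listed at 0.

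Of the 38 other class A receptors and ungrouped members, 4 averaged at least 1 FPKM. Gpr141, an orphan receptor gene on chromosome 13 (19749680 to 19824336, minus strand), had 53.0, 54.5 and 60.6 FPKM with GM-CSF and 67.3, 65.5 and 71.1 FPKM without it. Only Gpr183 and Gpr97 had higher means among the members. Its groups did not overlap (log2 fold change -0.28, SE 0.06, limma adjusted p = 0.0212), and the call ended when untreated replicate 1 or 3 or GM-CSF replicate 1 or 2 was left out (adjusted p between 0.0544 and 0.0689). Gpr157, on chromosome 4 (150087503 to 150105927, plus strand), was low at 2.62, 2.41 and 2.55 FPKM with GM-CSF and 3.29, 3.29 and 3.42 FPKM without it. The replicates lay close together (log2 fold change -0.30, SE 0.07, limma adjusted p = 0.0256), but the call ended whichever library was left out, with adjusted p between 0.0611 and 0.0750. Gpr160 had 3.29, 3.75 and 3.04 FPKM with GM-CSF and 2.84, 2.78 and 2.90 FPKM without it, without overlap but short of the threshold (log2 fold change 0.18, limma adjusted p = 0.191).

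Of 22 tested members, 13 had groups that did not overlap, 5 higher and 8 lower with GM-CSF. Among all tested genes 39.2% did not overlap, 13.2% higher and 26.0% lower.

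The remaining members of this class were low. Gpr19, Gpr161, Gpr30, Gpr62, Gpr82, Gpr151 and Gpr52 averaged between 0.1 and 1 FPKM, the highest single values being 1.03 FPKM for Gpr19 with GM-CSF and 1.36 FPKM for the same gene without it. Gpr30, now named Gper1 for its reported response to oestrogen, lies 26.7 kb from Gpr146 and ranged from 0.259 to 0.457 FPKM with GM-CSF and from 0.443 to 0.465 FPKM without it. Gpr82 lies 5.27 kb from Gpr34 on the X chromosome and averaged 0.214 FPKM against 26.4 FPKM for Gpr34. Gpr20, Gpr21, Gpr22, Gpr39, Gpr61, Gpr75, Gpr85, Gpr149, Gpr152, Gpr153, Gpr165 and Gpr176 were above 0 but below 0.1 FPKM. Listed at 0 throughout were Gpr26, Gpr27, Gpr33, Gpr45, Gpr50, Gpr63, Gpr83, Gpr101, Gpr135, Gpr139, Gpr162 and Gpr173.

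Metabolite and peptide receptors were sparse apart from Gpr171. Gpr35, which responds to the tryptophan product kynurenic acid and is prominent in gut tissue, had 2.46, 2.11 and 1.63 FPKM with GM-CSF and 3.07, 2.88 and 2.37 FPKM without it. The groups overlapped slightly, and the change did not pass (log2 fold change -0.30, 95% interval -0.61 to 0.01, limma adjusted p = 0.152). Gpr84, a receptor for medium-chain fatty acids, ranged from 0.358 to 1.03 FPKM with GM-CSF and from 0.349 to 0.767 FPKM without it. Gpr182 ranged from 0.596 to 1.06 FPKM with GM-CSF and from 0.570 to 0.925 FPKM without it. Gpr81, the lactate receptor gene, and Gpr25 averaged below 0.1 FPKM. Gpr15, a homing receptor that guides lymphocytes to the large intestine, was listed at 0 in all 6 libraries, as were Gpr1, Gpr37 and Gpr142.

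Of the 6 tested genes for proteins of internal membranes, 1 fell and 5 did not pass, beside 14.2% of all tested genes that fell. Gpr137b, a lysosomal membrane protein linked to mTORC1 signalling, was the member of the group that fell, with 26.2, 25.9 and 24.9 FPKM after GM-CSF and 36.8, 35.0 and 32.8 FPKM without it. The groups did not overlap (log2 fold change -0.43, SE 0.05, limma adjusted p = 0.00244). It lies on chromosome 13 (13357620 to 13393644, minus strand). Its pseudogene Gpr137b-ps averaged 21.9 ± 0.652 FPKM with GM-CSF and 28.2 ± 1.94 FPKM without it (SD, n = 3 each), and reads of such a pair may have been divided with error. Summed with the pseudogene, an alternative added after the values were seen, the fall was 0.40 on the log2 scale (limma adjusted p = 0.00337), a fall like that of the gene alone.

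Gpr108 and Gpr107, related Golgi proteins, differed by less than the spread between replicates. Gpr108 had 24.0, 26.3 and 21.8 FPKM with GM-CSF and 24.4, 23.2 and 24.6 FPKM without it (log2 fold change -0.01, 95% interval -0.18 to 0.17, limma adjusted p = 0.965). Gpr107 had 19.4, 17.6 and 18.7 FPKM with GM-CSF and 19.3, 19.4 and 18.2 FPKM without it (log2 fold change -0.03, limma adjusted p = 0.770). Gpr137, a relative of Gpr137b, had 17.5, 18.7 and 16.6 FPKM with GM-CSF and 17.4, 19.7 and 18.1 FPKM without it (log2 fold change -0.06, adjusted p = 0.576 by limma). The signs of Gpr108 and Gpr107 turned under other scalings.

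Gpr89, whose product is the Golgi pH regulator, measured 1.94, 2.10 and 2.64 FPKM with GM-CSF and 2.21, 1.87 and 3.29 FPKM without it (limma adjusted p = 0.782). Gpr180 measured 1.95, 1.37 and 1.62 FPKM with GM-CSF and 1.58, 2.40 and 2.32 FPKM without it (limma adjusted p = 0.328). In both genes the groups overlapped. Gpr155, a lysosomal cholesterol sensor, ranged from 0.0834 to 0.311 FPKM with GM-CSF and from 0.174 to 0.320 FPKM without it. Gpr137c was below 0.1 FPKM and Gpr143 was listed at 0. Of the class C members, Gpr179 averaged 0.326 FPKM with GM-CSF and 0.340 FPKM without it, and Gpr158 was listed at 0. Of the receptors with high basal cyclic AMP signalling, Gpr3 was below 0.1 FPKM, and Gpr6 and Gpr12 were listed at 0.

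**Figure D4:**
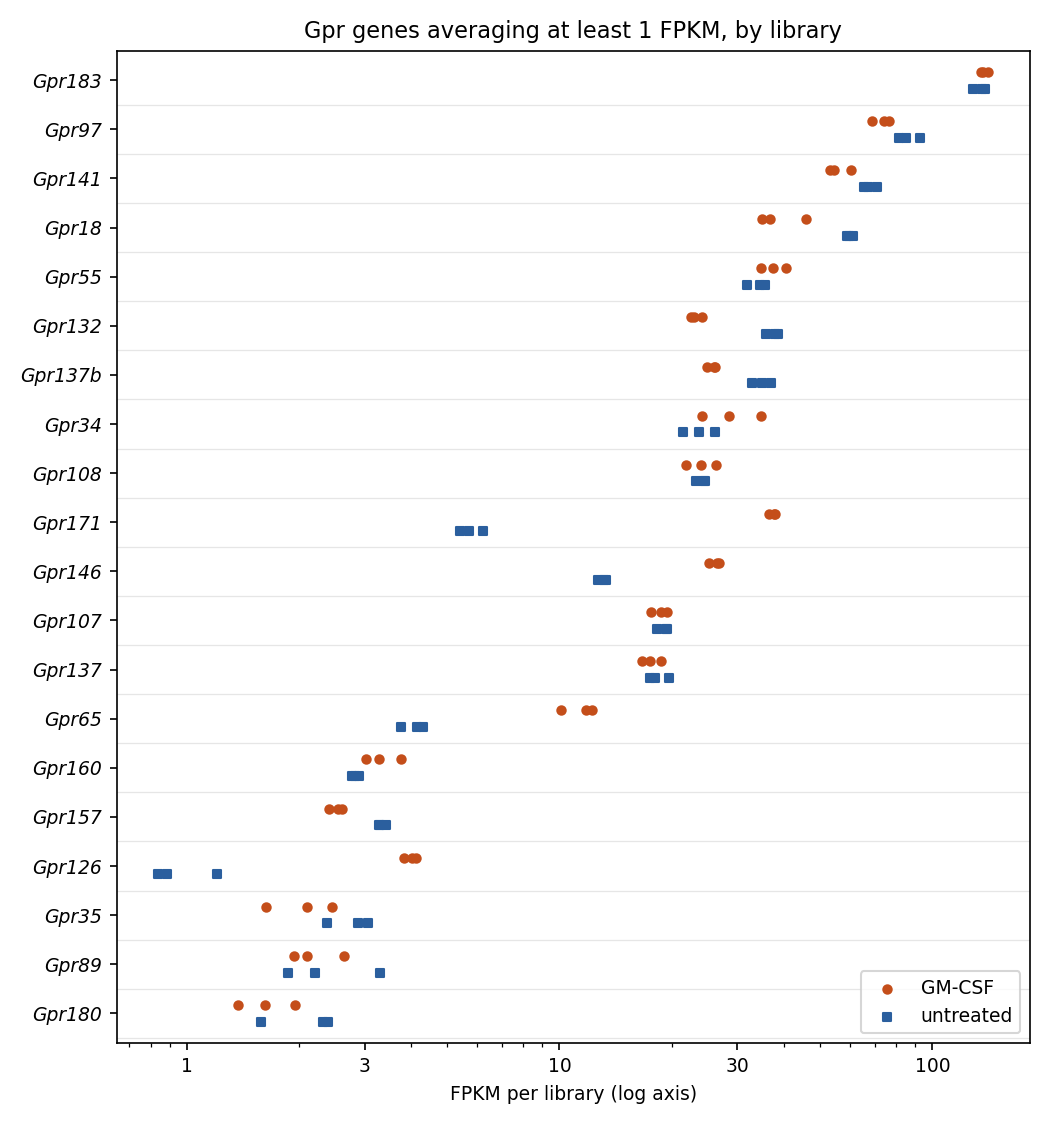
FPKM per library on a log axis (horizontal) for 20 Gpr genes averaging at least 1 FPKM, ordered by mean level, with GM-CSF libraries as circles above untreated libraries as squares. Gpr183 lies between 129 and 141 FPKM in all libraries, and Gpr171, Gpr146, Gpr65 and Gpr126 show wide gaps with GM-CSF on the higher side.

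Genes that carry or end receptor signals were counted in the same way. Over 4 lists of G protein subunits, RGS proteins, receptor kinases and arrestins, and cyclic AMP enzymes, 47 genes were tested, of which 2 rose and 13 fell. Among all tested genes 7.68% rose and 14.2% fell, and that excess of falls nearly vanished under median-of-ratios scaling, as given above. Under the same scaling 3 of the signalling genes rose and 12 fell. Of 7 RGS genes tested, whose products speed the shut-off of G proteins, 5 fell and 0 rose. Rgs2 averaged 132.7 ± 6.72 FPKM with GM-CSF and 232.8 ± 25.0 FPKM without (SD, n = 3 each; log2 fold change -0.80, limma adjusted p = 0.00102), Rgs1 417.5 ± 40.5 FPKM with GM-CSF and 639.0 ± 73.1 FPKM without (-0.61, 0.00800), Rgs10 89.5 ± 0.383 FPKM with GM-CSF and 129.1 ± 11.0 FPKM without (-0.52, 0.00225) and Rgs3 27.7 ± 1.62 FPKM with GM-CSF and 35.6 ± 2.48 FPKM without (-0.35, 0.0126). The median log2 fold change of the tested RGS genes was -0.35, against -0.05 for all genes.

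Of 17 G protein subunit genes, 1 rose and 3 fell, a share near that of all genes. Gng2, a gamma subunit gene, had 14.8 ± 1.83 FPKM with GM-CSF and 27.1 ± 1.52 FPKM without (SD, n = 3 each; log2 fold change -0.84, limma adjusted p = 0.00149). Gng10 (-0.30) and Gngt2 (-0.29) fell by less, and Gnaq, the alpha subunit that drives phospholipase C, rose (0.35, limma adjusted p = 0.0129). Of 8 receptor kinase and arrestin genes, Grk6 (log2 fold change -0.38, limma adjusted p = 0.00480) and Arrb2 (-0.38, 0.00273) fell and 0 rose, so that 25% passed, near the 21.9% of all tested genes. These gene products tag and uncouple active receptors. Of 15 cyclic AMP genes, the phosphodiesterase gene Pde4b rose, with 48.4 ± 2.71 FPKM in GM-CSF and 34.2 ± 2.45 FPKM in untreated cultures (SD, n = 3 each; 0.49, limma adjusted p = 0.00326). Pde4a (-0.63), the adenylyl cyclase gene Adcy7 (-0.36) and Pde3b (-0.23) fell. The share that passed, 26.7%, was near that of all tested genes.

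**Figure D5:**
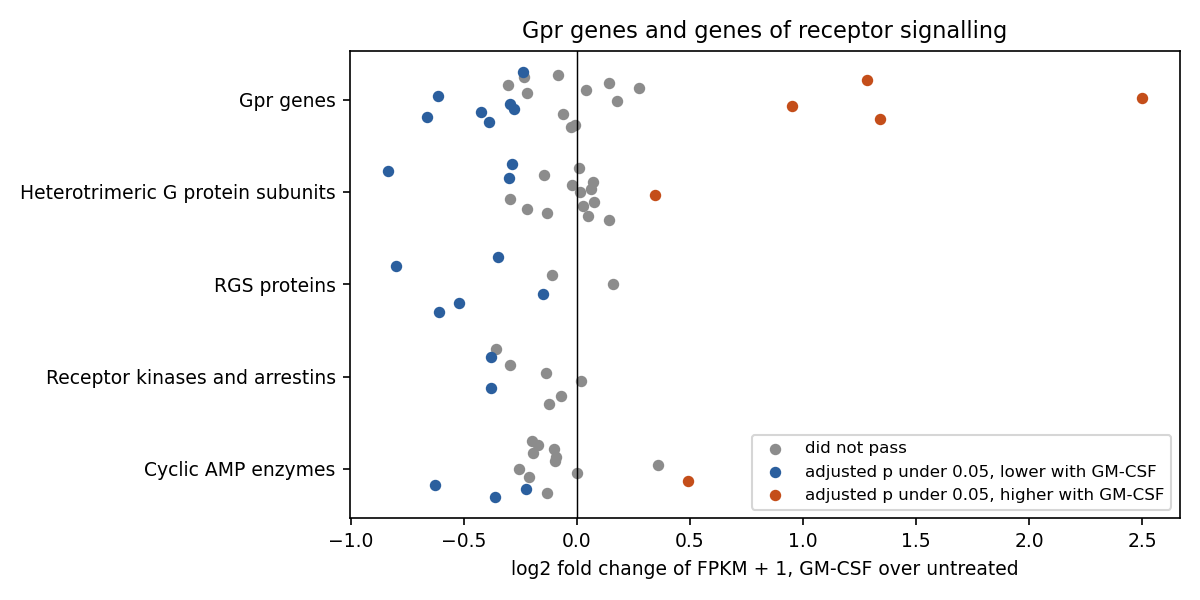
Log2 fold change of FPKM + 1, GM-CSF over untreated (horizontal axis), for tested Gpr genes and for 4 lists of signalling genes, 1 point per gene, with vertical offsets only to separate points. The Gpr genes reach 2.50, while the signalling genes lie between -0.84 and 0.49.

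A list of enzymes, most of which make or remove ligands of these receptors, was read in the same libraries. Of 8 tested, 2 rose and 3 fell, beside 7.68% and 14.2% of all tested genes. Abhd12, which degrades lysophosphatidylserine, the ligand of Gpr34 and Gpr174, averaged 27.3 ± 2.35 FPKM with GM-CSF and 12.0 ± 0.908 FPKM without (SD, n = 3 each; log2 fold change 1.12, limma adjusted p = 0.000223). Abhd16a and Pla1a, which can supply that lipid or its precursor pool, did not pass (limma adjusted p = 0.680 and 0.112). Lpcat3, which puts fatty acids back on lysophospholipids, rose by 0.19 (limma adjusted p = 0.0262).

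Hsd3b7, which inactivates the oxysterol ligand of Gpr183, had 10.2 ± 0.713 FPKM with GM-CSF and 13.9 ± 1.25 FPKM without (SD, n = 3 each; log2 fold change -0.41, limma adjusted p = 0.0144). Ch25h and Cyp7b1, which make that ligand, were listed at 0 in all libraries. Ldha, which makes lactate, had 332.4 FPKM with GM-CSF and 401.7 FPKM without (log2 fold change -0.27, limma adjusted p = 0.00286), while the lactate receptor gene Gpr81 averaged below 0.1 FPKM. The list also held Irg1, which makes itaconate and is tied here to no member. Irg1 fell by 0.54 on the log2 scale (limma adjusted p = 0.00590). Afmid, of the kynurenine pathway that feeds Gpr35, did not pass (limma adjusted p = 0.152).

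Receptors that have lost or never had a Gpr symbol were read beside the members. Of 7 tested, 2 rose and 3 fell, where 7.68% of all tested genes rose and 14.2% fell. Ffar2, the short-chain fatty acid receptor gene once named Gpr43, averaged 71.1 ± 2.53 FPKM with GM-CSF and 12.0 ± 1.10 FPKM without (SD, n = 3 each), a ratio of 5.92 and a log2 fold change of 2.47 (limma adjusted p = 5.98e-06), close in size to that of Gpr171. Niacr1, the niacin receptor gene once named Gpr109a, rose by 0.52 (limma adjusted p = 0.00482), and P2ry10 and Ccrl2 fell by 0.62 and 0.55 on the log2 scale (limma adjusted p = 0.00279 and 0.0155). Gpr44 averaged 1.00 ± 0.271 FPKM with GM-CSF and 1.44 ± 0.213 FPKM without (SD, n = 3 each) and did not pass (limma adjusted p = 0.174).

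Markers of other cells were present and moved with the treatment. Their counts stand beside 14.2% of all tested genes that fell and 7.68% that rose. The 6 T cell markers found in the files summed to between 14.6 and 17.1 FPKM with GM-CSF and between 26.9 and 28.0 FPKM without it, and all 4 that were tested fell. The 7 B and plasma cell markers summed to between 16.7 and 17.7 FPKM with GM-CSF and between 31.0 and 38.5 FPKM without it, and all 5 tested fell. Csf1r, Apoe and Lyz2 fell among the 4 tested markers of macrophages and dendritic cells. The 9 in the files summed to between 434.6 and 503.7 FPKM with GM-CSF and between 391.7 and 446.7 FPKM without it. Most of that sum was Emr1, which averaged 426 FPKM with GM-CSF and 368 FPKM without it and did not pass. C1qa, C1qb, Mertk, Zbtb46 and Flt3 averaged below 1 FPKM in both groups, so the sum is not read as a level of macrophages. The 6 innate lymphoid and NK cell markers summed to between 6.62 and 7.26 FPKM with GM-CSF and between 11.7 and 13.6 FPKM without it. All 3 tested were lower. Il7r of this list and Mzb1 of the B and plasma cell list passed the filter on low values through their untreated libraries alone. Il7r averaged 0.907 FPKM with GM-CSF and 2.10 FPKM without it. Mzb1 averaged 0.725 FPKM with GM-CSF and 2.01 FPKM without it. No marker of these 4 lists was at 0 in all libraries. Gpr18, Gpr132 and P2ry10, which fell, are also known from lymphocytes, as is Gpr174, which was too low for the test. The part of these markers in the falls of Gpr18, Gpr132 and P2ry10 was not tested. Gpr171 is likewise known from T cells, and the part of these cells in its level was not tested. In bulk RNA, fewer cells of a type and less RNA per cell cannot be told apart.

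The other marker lists also moved, and their counts stand beside the same 14.2% of all tested genes that fell and 7.68% that rose. The 6 neutrophil markers, of which Elane was at 0 in all libraries, summed to between 1140.0 and 1167.2 FPKM with GM-CSF and between 1364.3 and 1481.0 FPKM without it. Most of that sum was Retnlg, which averaged 999 FPKM with GM-CSF and 1344 FPKM without it. S100a8 averaged 8.48 FPKM with GM-CSF and 15.1 FPKM without it, and Mpo 0.0893 and 0.118 FPKM. Of the 4 neutrophil markers tested, 2 fell and Cxcr2 rose. The 9 epithelial markers summed to between 55.0 and 68.3 FPKM with GM-CSF and between 83.8 and 89.5 FPKM without it, with 4 of 7 tested lower. The 6 mast cell markers summed to between 12.4 and 15.4 FPKM with GM-CSF and between 14.8 and 26.0 FPKM without it, with 2 of 4 tested lower. Among the 5 stromal and endothelial markers, which summed to between 117.7 and 132.4 FPKM with GM-CSF and between 151.7 and 168.7 FPKM without it, Pdgfra rose and Pecam1 fell. Most of that sum was Pecam1, at 117 FPKM with GM-CSF and 155 FPKM without it. Col1a1, Col3a1 and Cdh5 averaged below 0.1 FPKM in both groups. Gpr97, which fell here, is known from neutrophils and mast cells as well as eosinophils, and the part of these cells in its level was not tested.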

How the data were processed

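The authors deposited 1 table per library with an FPKM value, a coverage and a length for each of 30374 RefSeq transcripts, per the file headers. Tools listed in the submitters' processing notes are Cufflinks, TopHat, TopHat2 and bcl2fastq 1.8.4, with build mm10 and no settings, and the labels' protocols name a stranded mRNA kit. The deposited coverage signal was used only for depth: coverage over FPKM was constant within a library and equals its mapped gigabases, between 0.820 and 1.32 with GM-CSF and between 0.917 and 0.974 without. The thinnest tested member value, of Gpr89, rested on 3.05 kb of aligned sequence. FPKM were summed per symbol. Genes averaging 1 FPKM or more were tested on log2(FPKM + 1) with limma 3.58.1 in R 4.3.3 (empirical Bayes with trend, two-sided, Benjamini-Hochberg, threshold 0.05), a test checked on simulated data. The values are not counts, so no count test was run. Every fold change is on the log2(FPKM + 1) scale, and ratios are of mean FPKM. Positions come from RefSeq GRCm38.p6, the build mm10, by transcript accession for 89 members and by symbol for 2. Overlapping genes come from GENCODE M21. Counts and medians cover all members, but some members are not reported here by name. The other tested members are named, as are those from 0.1 to 1 FPKM with their range, and up to 4 passing genes of each signalling list by size of change. The members, lists and tests were chosen with earlier results of these data known. Replicates of a group correlated between 0.946 and 0.957 over tested genes, and none looked like a repeat.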

Additional observations from a re-analysis of the deposited data

How the results depend on the processing

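The tests were run under 16 alternatives and 1 added after the values were seen, the sum of Gpr137b with its pseudogene. The alternative by symbol and locus told loci apart by the copy suffix of the transcript names, not by chromosome. Gpr171, Gpr65, Gpr126, Gpr18, Gpr132 and Gpr137b kept their direction and passed in every alternative in which they were tested, and Gpr146 in all but the one with the higher transcript. The count of 11 changed members was between 8 and 12 in the alternatives that kept all libraries, and leaving out 1 library gave between 7 and 8. The number that rose stayed at 4 without any 1 library, while the number that fell, 7, dropped to between 3 and 4. Median-of-ratios factors gave 1008 rises and 1040 falls over all genes, against 776 and 1436, and quantile normalization 950 and 1111. Under each of these, 4 members rose and 5 fell. Leaving out 1 library gave between 888 and 1117 falls over all genes. With quantile normalization 4 signalling genes rose in place of 2, and 12 fell in place of 13. Among members that did not pass, the sign turned for Gpr108 with median-of-ratios factors (0.052) and quantile normalization (0.021) and for Gpr107 with the same (0.030 and 0.0033). Leaving out 1 library gave between -0.071 and 0.058 for Gpr108, between -0.059 and 0.0082 for Gpr107 and between -0.21 and 0.084 for Gpr89, all in log2 units. Whether the replicate numbers pair the cultures is unknown here. Correlations of same-numbered libraries' deviations were -0.03, 0.05 and -0.02, and those of differently numbered libraries lay between -0.068 and 0.086. Whether same-numbered cultures shared an animal or a day was not tested. With the replicate block 11 members changed, 5 up and 6 down, with Gpr34 gained (adjusted p = 0.0431) and Gpr157 lost (0.0607). The causes of these shifts were not tested. Depth limits the members below 1 FPKM most, since their values rest on the least aligned sequence.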
